A study of Mus musculus with 12 samples.

Results

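The genes that autonomic nerves use to make and package their transmitters were followed in the urogenital sinus (UGS) of late fetal mice. The 10 genes were taken by symbol from a table of 56495 genes, and all 10 were present. They were Slc5a7, Slc18a3 and Chat of cholinergic neurons, Th, Ddc, Dbh and Slc18a2 of noradrenergic neurons, and Nos1, Vip and Npy, which mark nitric oxide and peptide transmission. The 12 RNA libraries were made at stage E18.5 and formed 4 groups of 3: mutant males, wild type males, mutant females and wild type females. Mutants carried the genotype Inv(Itga6-nsi)d11lac, by its name a chromosomal inversion between Itga6 and a point called nsi, together with an allele called d11lac. Each dissection left the bladder behind and held the proximal urethra, plus the vagina in female embryos. Zygosity, strain and the number of embryos behind a library were not given in the sources used here.

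The UGS is innervated by the pelvic ganglia, in which sympathetic and parasympathetic neurons lie side by side. A cholinergic terminal takes choline back up through the transporter encoded by Slc5a7, turns it into acetylcholine with choline acetyltransferase (Chat) and loads it into vesicles through the transporter encoded by Slc18a3. A noradrenergic terminal converts tyrosine to L-DOPA with Th, L-DOPA to dopamine with Ddc and dopamine to noradrenaline with Dbh, after Slc18a2 has moved dopamine into the vesicle. Many parasympathetic pelvic neurons also make nitric oxide through Nos1 and the peptide VIP, which relax smooth muscle and widen vessels, while neuropeptide Y accompanies noradrenaline and is found in some cholinergic pelvic neurons as well.

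Sequences of 4 promoters are shown because Slc5a7, Slc18a2 and Vip were the genes whose libraries lay lower without overlap in mutants of at least 1 sex, and Slc18a3, which works in the same cholinergic terminals as Slc5a7, overlapped in both. Each runs 5′ to 3′ on the gene's own strand from 250 bases before to 30 bases after the annotated start, from RefSeq on GRCm38.p6. Capitals mark TGACG or its reverse complement CGTCA, the core of the cyclic AMP response element, through which neuronal activity is known to act on Th and Vip among these genes.
Slc5a7, chr17:54299005-54299284, minus strand: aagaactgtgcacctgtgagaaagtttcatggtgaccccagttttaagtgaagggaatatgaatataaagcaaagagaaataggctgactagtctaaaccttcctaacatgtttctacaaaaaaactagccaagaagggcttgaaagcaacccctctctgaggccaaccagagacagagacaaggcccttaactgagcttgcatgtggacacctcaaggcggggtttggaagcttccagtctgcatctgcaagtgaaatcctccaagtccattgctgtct
Slc18a2, chr19:59260628-59260907, plus strand: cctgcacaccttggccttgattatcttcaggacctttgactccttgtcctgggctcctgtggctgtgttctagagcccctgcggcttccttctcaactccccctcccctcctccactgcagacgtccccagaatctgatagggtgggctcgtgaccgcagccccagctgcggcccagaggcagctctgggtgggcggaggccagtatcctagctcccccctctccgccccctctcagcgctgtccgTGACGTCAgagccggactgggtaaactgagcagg
Vip, chr10:5638968-5639247, plus strand: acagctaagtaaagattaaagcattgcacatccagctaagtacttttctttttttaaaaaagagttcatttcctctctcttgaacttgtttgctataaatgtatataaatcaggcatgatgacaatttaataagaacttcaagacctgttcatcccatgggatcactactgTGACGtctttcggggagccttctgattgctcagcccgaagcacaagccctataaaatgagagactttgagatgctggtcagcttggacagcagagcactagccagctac
Slc18a3, chr14:32464821-32465100, minus strand: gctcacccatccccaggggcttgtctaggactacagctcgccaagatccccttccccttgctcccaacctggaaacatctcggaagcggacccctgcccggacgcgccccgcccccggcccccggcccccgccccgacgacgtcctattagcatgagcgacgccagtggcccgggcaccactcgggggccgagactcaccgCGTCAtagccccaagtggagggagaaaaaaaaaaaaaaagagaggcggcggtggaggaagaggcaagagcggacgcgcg

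The core was found in the windows of 300 bases of 7 of the 10 genes, Chat, Dbh, Nos1, Slc18a2, Slc18a3, Th and Vip, and in 20.8% of 32851 promoter windows of the same length. The full palindrome TGACGTCA, which contains the core on both strands, was found for Slc18a2 and Th and in 1.79% of all windows. The Slc5a7 window held none of these letters. TAATTG or CAATTA, a core for homeodomain proteins, was found for Dbh and Th and in 8% of windows. A match is a description of the letters only.

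Library facts bear on every value below. Relative depth was 0.582 to 0.717 in the 6 mutant libraries and 0.812 to 1 in the 6 wild type libraries, so depth and genotype cannot be told apart. The library mutant female 3 stood apart: the summed level of 20 pan-neuronal genes was 81.2 scaled FPKM in it and 422 to 900 in the other 11 libraries. Its summed level of 8 glial genes was 31.6 against 45.1 to 80.2, whereas its 7 smooth muscle genes summed to 1.43e+03 scaled FPKM, within the range of the others. Scaled FPKM is the fragment density per transcript length and mapped fragments, divided by a factor for each library. Results that rest on mutant female 3 are given with and without it. Mutant female 1 differed too: its 5 epithelial genes summed to 641 scaled FPKM, against 220 to 421 in the other 11 libraries. Its neuronal and glial sums, 422 and 45.1, were the lowest after those of mutant female 3. Female results without mutant female 3 rest on mutant females 1 and 2. In bulk tissue, fewer neurons and less RNA per neuron cannot be told apart.

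Other tissues that express these genes were checked by their markers. The 6 markers of central neurons summed to 0.0715 to 0.297 scaled FPKM in every library, with Slc17a6, Slc17a7, Mnx1 and Slc6a5 under 0.1 throughout. Pnmt, which makes adrenaline in the adrenal medulla, was at 0.0236 to 0.158 scaled FPKM. Slc18a1, the other adrenal marker listed, was detected at 0.472 to 3.21 scaled FPKM. The 5 neuroendocrine or gut markers, of cells that also use Ddc, summed to 2.66 to 15 scaled FPKM. Among them Tph1 was at 0.449 to 1.88, and Chga, also on the pan-neuronal list, at 1.99 to 13.9. The part of such cells in the noradrenergic values was not tested. The 4 markers of kidney proximal tubule, where Ddc is abundant, summed to 0.245 to 1.45 scaled FPKM, with Slc22a6 listed at 0 in all libraries. Mast cells, which use Slc18a2, and skeletal muscle, which uses Nos1, were detected and are given beside those genes.

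**Figure D1:**
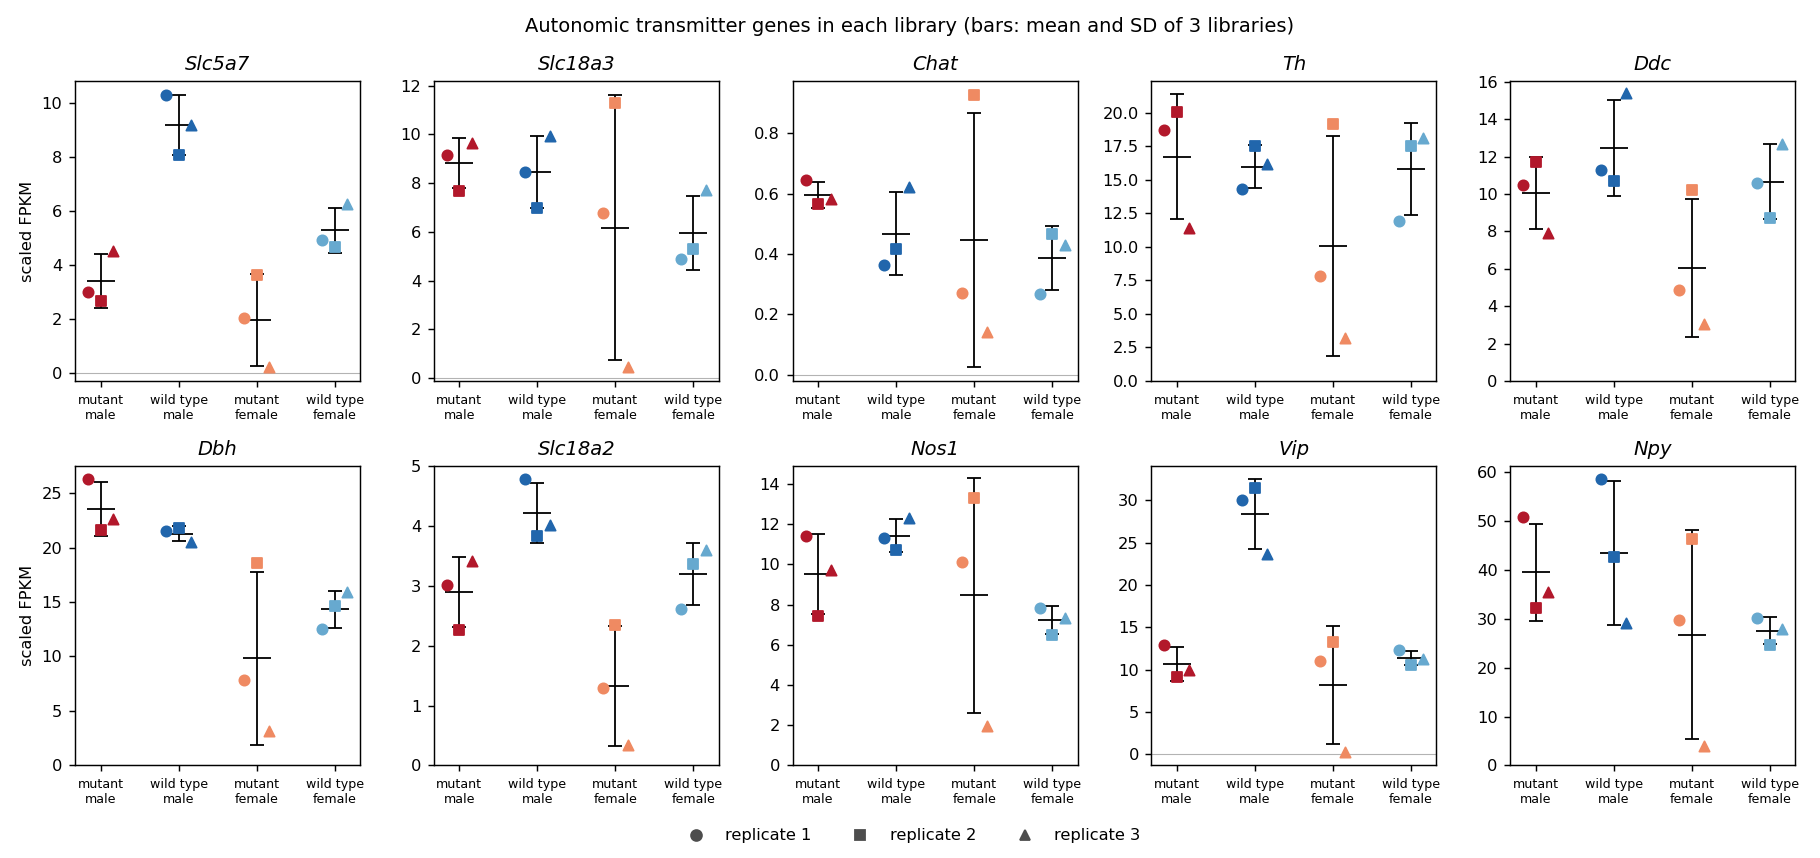
Scaled FPKM (vertical axis, linear) of the 10 transmitter genes in each of the 12 libraries, by group on the horizontal axis, with bars for the mean and SD of 3 libraries. Slc5a7 lay lower in every mutant library than in any wild type library of the same sex, Vip was 23.7 to 31.4 in wild type males and at most 13.3 elsewhere, and mutant female 3 (triangle) was the lowest of its group in all 10 panels.

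FPKM are per length, so levels can be compared between genes. In mutant males Npy was highest at 39.5 ± 9.9 scaled FPKM, followed by Dbh at 23.5 ± 2.47, Th at 16.7 ± 4.66 and Vip at 10.7 ± 1.94 (SD, n = 3 libraries). From Th through Vip, Ddc and Nos1 down to Slc18a3, each neighbouring pair overlapped in its libraries. In wild type males Npy was also highest, at 43.5 ± 14.8 scaled FPKM, but Vip came second at 28.4 ± 4.12, above Dbh at 21.3 ± 0.665 and Th at 16 ± 1.64 (SD, n = 3 libraries). There the libraries of Npy and Vip overlapped, and those of Vip and Dbh did not. Slc18a2 was the ninth and Chat the tenth in each group.

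Among females the order was less distinct. In mutant females Npy averaged 26.7 ± 21.4 scaled FPKM and Slc18a2 1.33 ± 1 (SD, n = 3 libraries), and every neighbouring pair in the order overlapped. In wild type females Npy averaged 27.6 ± 2.81 scaled FPKM, with Th at 15.8 ± 3.4, Dbh at 14.3 ± 1.68 and Vip at 11.4 ± 0.851. Th overlapped Dbh, and Vip overlapped Ddc, in the wild type female libraries.

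The first comparison asked how the inversion genotype went with transmitter genes in each sex. Of the 10 genes, 9 reached at least 1 FPKM in at least 3 libraries and were tested. Called here means an adjusted p under 0.05 from limma with Benjamini-Hochberg adjustment over 13904 genes, with 1 spread estimated from all 12 libraries. In mutant females 2 of 9 were called lower, Slc5a7 and Slc18a2, where 28% of all genes tested were called. Over both sexes the same 2 genes were called lower of 9, where 40.6% of all genes were called. Both shares of the members lie below those of all genes called in either direction. Called lower were 2208 of 13904 genes in females and 3008 over both sexes, the latter 21.6%. In males limma called 0 of 9, with 1 at an unadjusted p under 0.05, where 20.3% of all genes were called. All mutant libraries lay below all wild type libraries for 3 of 9 genes in males, Slc5a7, Slc18a2 and Vip, as for 22.4% of all genes tested. In females this held for 2 of 9, Slc5a7 and Slc18a2, and for 22.2% of all genes. The median log2 fold change of the 9 was -0.27 for males, -0.90 for females and -0.45 over both sexes, beside medians of 0.00 to 0.01 over all genes tested. These medians were -0.26, -0.22 and -0.15 without mutant female 3, and 5 of 9 values were below 0 in females instead of 9.

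Leaving out mutant female 3 changed these counts, although it belongs to neither male group, because all groups share the estimate of spread. Without it, 2 of 9 genes were called lower in mutant males, Slc5a7 and Vip, where 23.7% of all genes were called. In mutant females without it, Slc5a7 and Slc18a2 were called lower and Nos1 higher, 3 of 9 where 24.2% of all genes were called. Over both sexes without it, Vip, Slc5a7 and Slc18a2 were called lower, 3 of 9 where 39% of all genes were called. When all 12 libraries were corrected for transcript GC content and length, limma called 0 of 9 in males (1 at an unadjusted p under 0.05; 3.76% of all genes called) and 0 of 9 in females (5 at an unadjusted p under 0.05; 7.81% of all genes called). That correction, over both sexes, left Slc5a7 and Slc18a2 called lower, 2 of 9 where 18.2% of all genes were called.

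**Figure D2:**
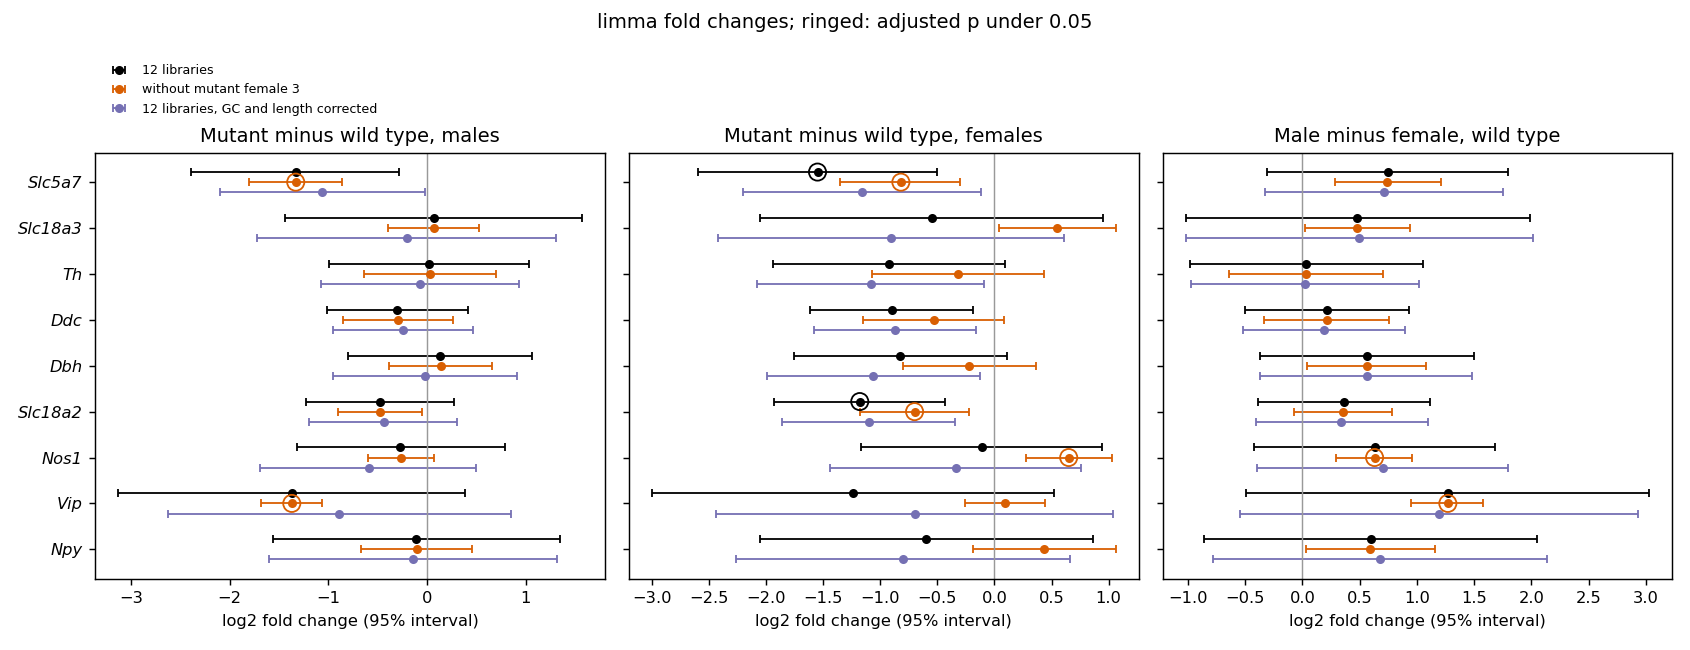
limma log2 fold changes with 95% intervals (horizontal axis) for the 9 tested genes, from all 12 libraries, without mutant female 3, and with a GC and length correction; rings mark an adjusted p under 0.05. Intervals narrow without mutant female 3, and Slc5a7 lies below 0 in both genotype panels under each setting.

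Slc5a7 (ENSMUSG00000023945, chromosome 17, 54580618 to 54606062, minus strand, mm39) showed the largest called difference among the members. The choline transporter gene was at 3.01, 2.67 and 4.53 scaled FPKM in mutant males 1, 2 and 3, against 10.3, 8.07 and 9.19 in wild type males. In females it was at 2.05, 3.63 and 0.22 scaled FPKM in mutants, against 4.94, 4.68 and 6.24 in wild types. Every mutant library lay below every wild type library of its sex, and mutant female 3 was far below all others. Over both sexes the log2 fold change was -1.44 (SE 0.34, limma adjusted p = 0.00607), and the call held when any 1 of the 12 libraries was left out. In females Slc5a7 fell by 1.55 on the log2 scale (SE 0.48, limma adjusted p = 0.0331), a call that ended without wild type female 1, 2 or 3 (limma adjusted p = 0.0766, 0.0661 and 0.0992).

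In males the Slc5a7 log2 fold change was -1.33 (SE 0.48, limma adjusted p = 0.0718) and missed the threshold. It passed, with the same size, without mutant female 2 (limma adjusted p = 0.0311) or mutant female 3 (adjusted p = 0.00332), and also in a fit of the 2 male groups alone (adjusted p = 0.00679). Without mutant female 3 the female value of Slc5a7 was -0.82 (limma adjusted p = 0.0301) and that over both sexes -1.08 (adjusted p = 0.000712). The GC and length correction gave Slc5a7 -1.06 in males (limma adjusted p = 0.221), -1.16 in females (adjusted p = 0.153) and -1.11 over both sexes (adjusted p = 0.0423). That correction without mutant female 3, added after seeing the data, gave -1.05 in males (limma adjusted p = 0.0141) and -0.43 in females (adjusted p = 0.231). The longest transcript of Slc5a7 has 40.8% G and C, against a median of 49.9% over the genes tested. Mutant effects in males and females differed by 0.22 (SE 0.68), and this difference was not called.

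Slc18a3 (ENSMUSG00000100241, chromosome 14, 32184395 to 32186807, minus strand, mm39), the vesicular acetylcholine transporter gene, did not follow Slc5a7. It stood at 9.16, 7.68 and 9.64 scaled FPKM in mutant males, against 8.47, 6.97 and 9.93 in wild type males. In females it was at 6.79, 11.3 and 0.452 scaled FPKM in mutants, against 4.9, 5.29 and 7.71 in wild types. The genotypes overlapped in both sexes. In males the log2 fold change was 0.07 with a 95% interval of -1.44 to 1.57, which narrowed to -0.39 to 0.53 without mutant female 3. In females the Slc18a3 value was -0.55 (limma adjusted p = 0.576), and 0.55 without mutant female 3 (adjusted p = 0.106). With the GC and length correction Slc18a3 was at -0.20 in males (limma adjusted p = 0.895) and -0.91 in females (adjusted p = 0.435).

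Chat (ENSMUSG00000021919, chromosome 14, 32130160 to 32187946, minus strand, mm39) was too low to be tested. The gene for the enzyme that makes acetylcholine was at 0.645, 0.564 and 0.581 scaled FPKM in mutant males, against 0.362, 0.418 and 0.623 in wild type males. In females Chat was at 0.272, 0.928 and 0.14 scaled FPKM in mutants, against 0.267, 0.466 and 0.429 in wild types. Groups overlapped in both sexes. Chat spans the whole of Slc18a3 on the same strand, and it overlaps Gm2990 on the opposite strand, so how reads were split between Chat and Slc18a3 is uncertain.

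The pair of cholinergic transporters was then compared within each library, where the scaling factor cancels. This and the other pairs below were picked after their values were seen, from 13 ratios computed, and carry no test. The ratio of Slc5a7 to Slc18a3 was 0.329, 0.348 and 0.47 in mutant males, against 1.22, 1.16 and 0.925 in wild type males. In females the ratio was 0.301, 0.322 and 0.486 in mutants, against 1.01, 0.886 and 0.809 in wild types. All 6 mutant libraries lay below all 6 wild type libraries, and mutant female 3, low for both genes, had the highest ratio of the 6 mutants. The ratio averaged 0.382 ± 0.0768 in mutant males and 1.1 ± 0.154 in wild type males, and 0.37 ± 0.101 in mutant females and 0.901 ± 0.1 in wild type females (SD, n = 3 libraries).

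The 2 cholinergic transcripts differ in base composition, at 40.8% G and C for Slc5a7 and 61.2% for Slc18a3. On the log2 scale of scaled FPKM plus 0.5, corrected for GC content and length, Slc5a7 minus Slc18a3 was -0.85 in mutant relative to wild type males, where mutant libraries ran from -1.18 to -0.91 and wild type libraries from -0.53 to -0.04. In females the corrected difference was -0.25, with mutants at -1.05, -1.07 and 0.03 and wild types at -0.29, -0.40 and -0.65. The corrected female groups overlapped through mutant female 3, in which both genes are near the added 0.5.

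**Figure D3:**
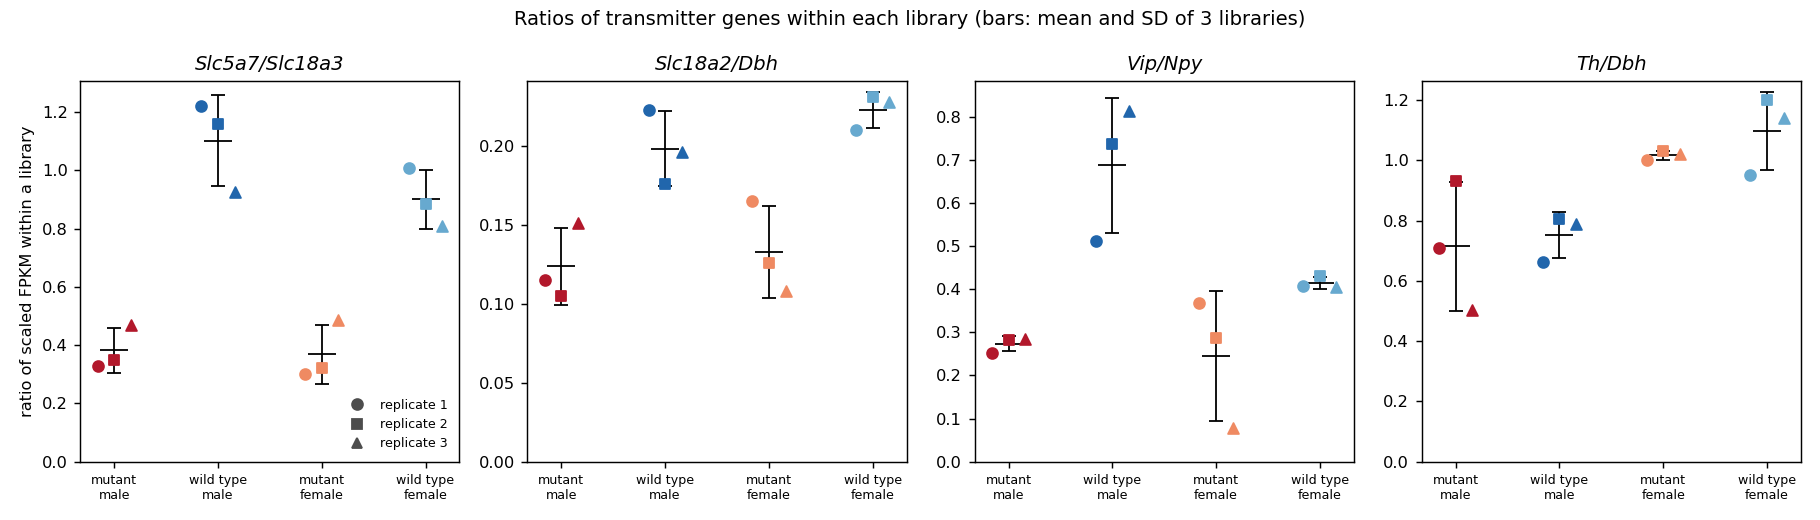
Ratio of scaled FPKM of gene pairs within each library (vertical axis, from 0), by group, with bars for the mean and SD of 3 libraries. The Slc5a7/Slc18a3 ratio was 0.301 to 0.486 in the mutant libraries and 0.809 to 1.22 in the wild type libraries, whereas Th/Dbh overlapped between genotypes in each sex.

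Partner genes of cholinergic transmission were counted from a list of receptors, esterases and choline carriers. Over both sexes 0 rose and 5 fell of 13 tested, at a median log2 fold change of -0.30 beside 0.00 for all genes. Over all genes tested 18.9% were called higher and 21.6% lower in that comparison, 40.6% in all, a share close to the 5 of 13 here. The nicotinic receptor subunits Chrna3 and Chrna5, which receive the preganglionic signal, fell by 0.98 and 0.68 on the log2 scale (limma adjusted p = 0.0386 and 0.00363). Colq, which anchors acetylcholinesterase, fell by 0.51 and the muscarinic receptor Chrm2 of smooth muscle and nerve endings by 0.45 (limma adjusted p = 0.0293 and 0.0112). The choline transporter-like gene Slc44a1, active in many cell types, was called lower in males (-0.29, limma adjusted p = 0.0303) and in females (-0.30, adjusted p = 0.0212). Of the 13, 2 fell over both sexes with the GC and length correction, where 1451 of 13735 genes were called lower.

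Slc18a2 (ENSMUSG00000025094, chromosome 19, 59249328 to 59284444, plus strand, mm39), the vesicular monoamine transporter gene, was the noradrenergic member with the lowest mutant values. It stood at 3.02, 2.26 and 3.42 scaled FPKM in mutant males, against 4.79, 3.84 and 4.02 in wild type males. In females Slc18a2 was at 1.29, 2.34 and 0.338 scaled FPKM in mutants, against 2.62, 3.36 and 3.61 in wild types. The genotypes overlapped in neither sex, though the gap between mutant male 3 and wild type male 2 was small. Slc18a2 fell by 1.18 on the log2 scale in females (SE 0.34, limma adjusted p = 0.0253) and by 0.83 over both sexes (SE 0.24, adjusted p = 0.0181), while the male value of -0.48 was not called (adjusted p = 0.347). The female call ended without wild type female 2 or 3 (limma adjusted p = 0.07 and 0.0807), and without mutant female 3 the values were -0.70 in females (adjusted p = 0.0396) and -0.59 over both sexes (adjusted p = 0.00941). With the GC and length correction the female value was -1.10 (limma adjusted p = 0.0742), and -0.62 without mutant female 3 (adjusted p = 0.114).

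Mast cells also store monoamines through Slc18a2, and the list of their markers was mixed. The 7 genes summed to 17 to 27.4 scaled FPKM in mutant males against 29.8 to 54.4 in wild type males. In females the sums were 18 to 78.2 in mutants against 43 to 82.6 in wild types. Hdc, which makes histamine, was the 1 gene called of 6 tested on that list over both sexes, lower by 1.31 on the log2 scale (limma adjusted p = 0.000111). Of all genes, 40.6% were called in that comparison. Hdc was at 5.84, 6.16 and 3.65 scaled FPKM in mutant males against 12.4, 10.2 and 10.4 in wild type males, and at 6.14, 6.75 and 10.4 in mutant females against 24.5, 25.8 and 20.8 in wild type females. The genotypes did not overlap for Hdc. Kit, on the same list, went the other way in males without a call (0.40, limma adjusted p = 0.085), at 8.19, 9.08 and 7.91 scaled FPKM in mutants against 6.16, 5.71 and 6.86 in wild types. The part of mast cells in the Slc18a2 result was not tested.

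Th (ENSMUSG00000000214, chromosome 7, 142446489 to 142484865, minus strand, mm39), the rate-limiting enzyme of catecholamine synthesis, overlapped between genotypes in both sexes. It ranged from 11.4 to 20.1 scaled FPKM in mutant males and from 14.3 to 17.5 in wild type males, and from 3.19 to 19.2 in mutant females and 11.9 to 18.1 in wild type females. Dbh (ENSMUSG00000000889, chromosome 2, 27055245 to 27073212, plus strand, mm39) was at 26.3, 21.6 and 22.6 scaled FPKM in mutant males, against 21.5, 21.8 and 20.5 in wild type males. In females Dbh was at 7.82, 18.6 and 3.12 scaled FPKM in mutants, against 12.5, 14.6 and 15.9 in wild types. The mutant females spread on both sides of the wild type females. Log2 fold changes were 0.02 for Th (95% interval -0.99 to 1.04) and 0.13 for Dbh (-0.80 to 1.07) in males, and -0.92 and -0.83 in females, none of them called.

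Mutant females differed among themselves in noradrenergic genes. Without mutant female 2, the highest of the group, Th, Dbh and Ddc were each called lower in females at -1.53, -1.42 and -1.33 (limma adjusted p = 0.00866, 0.00464 and 0.00364). Without mutant female 3 the 3 female values were -0.32, -0.22 and -0.53 and none was called (limma adjusted p = 0.509, 0.56 and 0.179). These calls therefore turned on which mutant female was included.

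Ddc (ENSMUSG00000020182, chromosome 11, 11764101 to 11848144, minus strand, mm39), which makes dopamine from L-DOPA, ranged from 7.94 to 11.7 scaled FPKM in mutant males and from 10.7 to 15.4 in wild type males. In females Ddc ranged from 3.06 to 10.2 scaled FPKM in mutants and from 8.71 to 12.7 in wild types. The genotypes overlapped in both sexes, and the log2 fold changes of -0.30 in males, -0.90 in females (limma adjusted p = 0.0592) and -0.60 over both sexes (adjusted p = 0.0571) were not called.

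Within libraries, the ratio of Slc18a2 to Dbh was lower in mutants. It was 0.115, 0.105 and 0.151 in mutant males against 0.223, 0.176 and 0.196 in wild type males, and 0.165, 0.126 and 0.108 in mutant females against 0.21, 0.231 and 0.228 in wild type females. No library of a genotype overlapped the other. The ratio of Th to Dbh was 0.71, 0.93 and 0.503 in mutant males against 0.663, 0.805 and 0.788 in wild type males. In females it was 1 to 1.03 in mutants against 0.951 to 1.2 in wild types, and the genotypes overlapped in both sexes. Corrected for GC content and length, the log2 difference of Slc18a2 and Dbh was lower in mutant than in wild type males by -0.42, without overlap, and stood at -0.04 in females, with overlap.

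Of 13 tested partners in catecholamine handling, 4 rose and 3 fell over both sexes, at a median log2 fold change of -0.12, where 18.9% of all genes were called higher and 21.6% lower. Maoa, which degrades noradrenaline, fell by 0.67 on the log2 scale (limma adjusted p = 0.000277). Maoa measured 13.1, 13.6 and 12.8 scaled FPKM in mutant males against 21, 18.8 and 21.3 in wild type males, and 8.87, 12.7 and 8.92 in mutant females against 16.1, 16 and 19.5 in wild type females. Each mutant library was below every wild type library of its sex for Maoa. With the GC and length correction 1 of the 13 partners rose and 2 fell, where 1050 of 13735 genes were called higher and 1451 lower. The adrenergic receptor Adra1d rose by 0.55 and Spr, which makes the cofactor of Th, by 0.36 (limma adjusted p = 0.00296 and 0.000393).

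Vip (ENSMUSG00000019772, chromosome 10, 5589218 to 5597617, plus strand, mm39), the vasodilator peptide gene, set wild type males apart from the other groups. It stood at 12.9, 9.15 and 10 scaled FPKM in mutant males, against 30, 31.4 and 23.7 in wild type males. In females Vip was at 11, 13.3 and 0.31 scaled FPKM in mutants, against 12.3, 10.6 and 11.3 in wild types. Mutant and wild type males did not overlap, while mutant females 1 and 2 lay at the wild type female level and mutant female 3 near 0. With all 12 libraries the male log2 fold change of -1.37 had a 95% interval of -3.13 to 0.39 (limma adjusted p = 0.25).

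Without mutant female 3 the Vip value in males kept its size of -1.37, with an interval of -1.68 to -1.06, and was called (limma adjusted p = 0.000838). A fit of the male groups alone also called it (limma adjusted p = 0.00526), and the GC and length correction without mutant female 3, added after seeing the data, gave -0.89 (adjusted p = 0.0182). In females Vip was at -1.24 with all libraries (limma adjusted p = 0.269) and 0.09 without mutant female 3 (adjusted p = 0.709). Over both sexes Vip was not called at -1.30 (limma adjusted p = 0.0877) but was without mutant female 1, 2 or 3 (-1.60, -1.67 and -0.64; adjusted p = 0.0389, 0.0289 and 0.00121). The longest Vip transcript has 38.7% G and C, the lowest of the 10 genes.

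Whether the mutant effect differed between males and females was tested for every gene. limma called 0 of 9 members, with 0 at an unadjusted p under 0.05, and 0% of all genes, with 1225 of 13904 at an unadjusted p under 0.05. Without mutant female 3 it again called 0 of 9 and 0% of all genes, with 2 members at an unadjusted p under 0.05. These were Vip, where the male minus female difference was -1.46 (SE 0.21, limma adjusted p = 0.237), and Nos1, where it was -0.92 (SE 0.23, adjusted p = 0.271).

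Nos1 (ENSMUSG00000029361, chromosome 5, 117919097 to 118096905, plus strand, mm39), the neuronal nitric oxide synthase gene, was at 11.4, 7.42 and 9.74 scaled FPKM in mutant males, against 11.3, 10.7 and 12.3 in wild type males. In females Nos1 was at 10.1, 13.3 and 1.97 scaled FPKM in mutants, against 7.84, 6.47 and 7.34 in wild types. Mutant females 1 and 2 lay above all wild type females and mutant female 3 below them. The female log2 fold change of Nos1 was -0.11 with all libraries (limma adjusted p = 0.88) and 0.65 without mutant female 3 (adjusted p = 0.0202), and the male value was -0.27 (adjusted p = 0.732).

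Skeletal muscle fibres also use Nos1, and their markers differed between groups. The 8 muscle genes summed to 499 to 807 scaled FPKM in mutant males against 841 to 1.16e+03 in wild type males. In females the sums were 502 to 611 in mutants against 523 to 703 in wild types. In males 6 of the 8 fell, at a median log2 fold change of -0.95, where 20.3% of all genes were called, 1618 of 13904 of them lower. In females limma called 0 of 8, with 0 at an unadjusted p under 0.05, at a median of -0.24, where 28% of all genes were called. Over both sexes 6 of the 8 fell, where 21.6% of all genes were called lower, among them Ckm by 1.25 and Tnni2 by 0.82 on the log2 scale (limma adjusted p = 0.000236 and 0.000845). The part of muscle in the Nos1 values was not tested.

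Npy (ENSMUSG00000029819, chromosome 6, 49799690 to 49806487, plus strand, mm39) was the most abundant member and overlapped between genotypes. It ranged from 32.3 to 50.8 scaled FPKM in mutant males and from 29.1 to 58.6 in wild type males. In females Npy ranged from 3.94 to 46.4 scaled FPKM in mutants and from 24.6 to 30.2 in wild types. The Npy log2 fold changes were -0.11 in males (95% interval -1.56 to 1.35) and -0.60 in females (-2.05 to 0.86), and neither was called.

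Vip was also set against Npy within libraries. The Vip to Npy ratio was 0.253, 0.283 and 0.284 in mutant males, against 0.511, 0.737 and 0.813 in wild type males. In females the ratio was 0.369, 0.287 and 0.0787 in mutants, against 0.407, 0.431 and 0.406 in wild types. Mutants lay below wild types of their sex in every library. Corrected for GC content and length, the log2 difference of Vip and Npy was lower in mutant than in wild type males by -0.75, without overlap. In females it stood at 0.10, with mutants at -0.90, -1.25 and -1.93 and wild types at -1.50, -1.37 and -1.53. There mutant females 1 and 2 lay above all wild type females and mutant female 3 below them. Corrected in the same way, Vip minus Nos1 was -0.30 and Vip minus Slc18a3 -0.69 in mutant relative to wild type males. For both of these pairs the male genotypes overlapped.

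Partners of nitric oxide and peptide transmission were counted in the same way, where 40.6% of all genes were called. Of 9 tested nitric oxide partners, 2 rose and 2 fell over both sexes: Nos1ap, an adaptor of Nos1, rose by 0.44 and Ddah2 by 0.16, and Ddah1 and the cyclic GMP kinase Prkg1 fell by 0.59 and 0.36 on the log2 scale (limma adjusted p = 0.0182, 0.0174, 0.00902 and 0.00264). The 2 Ddah genes encode enzymes that break down a natural inhibitor of nitric oxide synthesis. Of 14 tested peptide partners, 0 rose and 2 fell, the processing enzymes Pcsk1 and Pam, by 0.48 and 0.27 (limma adjusted p = 0.00903 and 0.0127). Median log2 fold changes were -0.09 for the nitric oxide partners and -0.32 for the peptide partners. Of the 14 peptide partners, 4 fell without mutant female 3, where 2864 of 13859 genes were called lower.

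Transcription factors and receptors of autonomic neurons showed 3 higher and 0 lower of 13 tested over both sexes, at a median of -0.01, where 18.9% of all genes were called higher and 21.6% lower. There was 1 higher with the GC and length correction, where 1050 of 13735 genes were called higher. Among the 13, Gata3 rose by 0.51 and Gata2 by 0.33 on the log2 scale without that correction (limma adjusted p = 0.000531 and 0.0137). Gata2 and Gata3 are also made outside neurons, and Gata3 was at 15.8 to 18.1 scaled FPKM in mutant males and 11.5 to 12.6 in wild type males.

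General neuronal signal was measured by 20 pan-neuronal genes. Over both sexes 5 of 20 fell and 0 rose, where 21.6% of all genes were called lower, at a median log2 fold change of -0.74 (-0.36 without mutant female 3). Within a sex limma called 0 of 20 in males, with 1 at an unadjusted p under 0.05, and 0 of 20 in females, with 9. Of all genes, 20.3% were called in males and 28% in females. Named by size of change over both sexes were Syt4 at -1.42, Snap25 at -1.24, Elavl4 at -0.89 and Snap91 at -0.64 (limma adjusted p = 0.0276, 0.0423, 0.0109 and 0.0275). The mean log2 value of the 20 genes was 4.29, 3.95 and 4.13 in mutant males, against 4.63, 4.52 and 4.54 in wild type males. In females the mean was 3.47, 4.19 and 1.38 in mutants, against 3.99, 3.97 and 4.28 in wild types. Mutant males lay below all wild type males, mutant females 1 and 3 below all wild type females, and mutant female 2 within their range. Of the 20 genes, 9 fell without mutant female 3, where 2864 of 13859 genes were called lower over both sexes. With the GC and length correction limma called 0 of 20, with 9 at an unadjusted p under 0.05. There 18.2% of all genes were called over both sexes.

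Relative to that mean, the members parted. Slc5a7 minus the pan-neuronal mean was -2.48, -2.28 and -1.80 in mutant males, against -1.20, -1.42 and -1.27 in wild type males, and -2.12, -2.14 and -1.85 in mutant females, against -1.54, -1.60 and -1.53 in wild type females. No mutant library overlapped its wild type group. Slc18a3 minus the mean was -1.02, -0.91 and -0.79 in mutant males, against -1.47, -1.62 and -1.16 in wild type males. In mutant females it was -0.60, -0.63 and -1.45, against -1.55, -1.44 and -1.24 in wild type females. Thus Slc18a3 stood higher relative to neuronal genes in mutant males and in mutant females 1 and 2, and Slc5a7 lower in all mutants. Slc18a2 minus the mean differed by -0.07 between mutants and wild types over both sexes (pooled SD 0.32). The Slc18a2 difference was -0.04 in males and -0.11 in females, and the genotypes overlapped in both sexes. In females the overlap came through mutant female 3 alone, at -1.63, where Slc18a2 was at 0.338 scaled FPKM, below the added 0.5. Mutant females 1 and 2, at -2.63 and -2.68, lay below the wild type females at -2.34, -2.03 and -2.24.

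**Figure D4:**
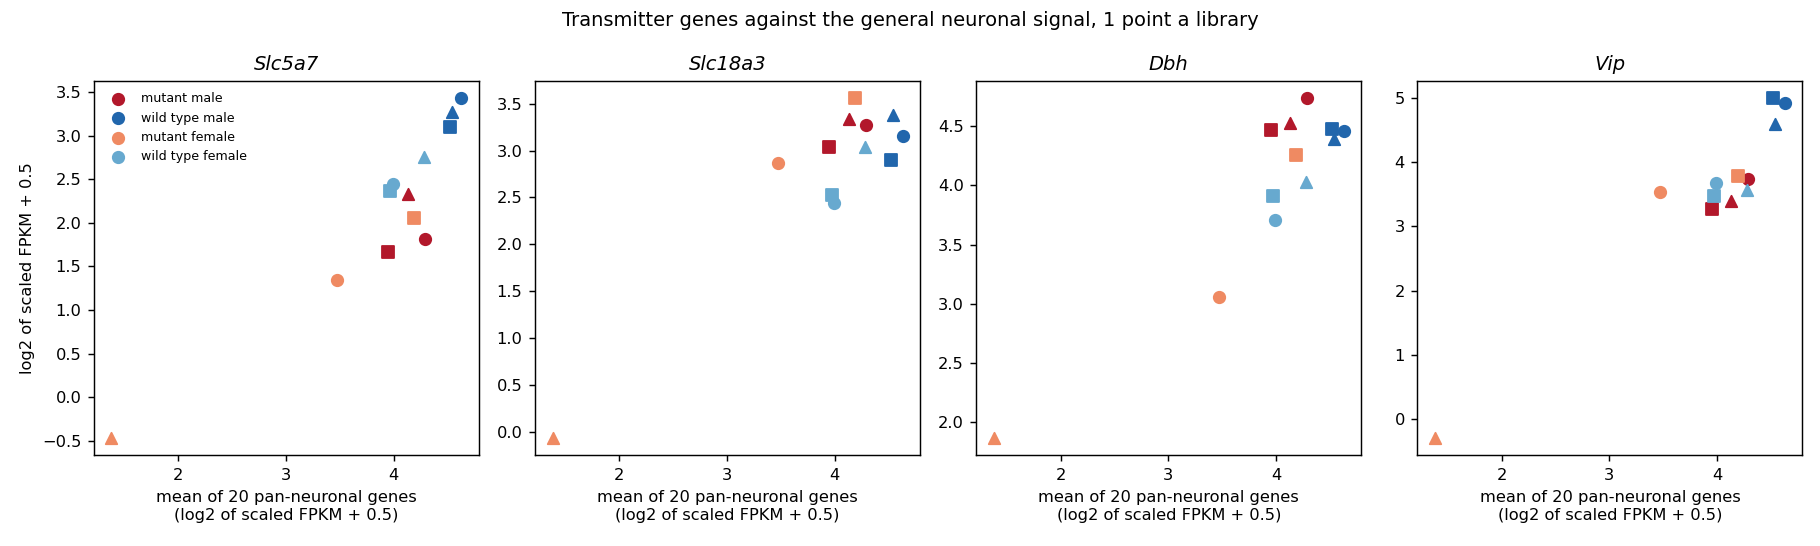
log2 of scaled FPKM plus 0.5 for 4 transmitter genes (vertical axis) against the mean of 20 pan-neuronal genes in the same library (horizontal axis), 1 point for each of the 12 libraries. Mutant female 3 lies alone at a mean of 1.38; among the rest, Slc5a7 points of mutants lie below and Slc18a3 points of mutants at or above those of wild types at a like neuronal mean.

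The same was put into the fit with the pan-neuronal mean as a covariate, a choice made after seeing the data. The covariate itself averaged lower in mutants, at 4.12 against 4.57 in males and 3.01 against 4.08 in females, where mutant female 3 was at 1.38. It can thus remove part of a genotype difference, and it can raise the value of a gene that fell less than the covariate. Without it, Slc18a3 was at -0.24, Nos1 at -0.19 and Npy at -0.35 over both sexes, none of them called. A call with the covariate concerns the level beside neuronal genes. In males it left Slc5a7 lower and Dbh and Slc18a3 higher, 3 of 9 where 17.5% of all genes were called. In females Slc5a7 and Slc18a2 were called lower and Slc18a3 and Nos1 higher, 4 of 9 where 17.7% of all genes were called. Over both sexes Slc5a7 was at -0.77 (limma adjusted p = 0.00201) and Slc18a2 at -0.36 (adjusted p = 0.0345), and Slc18a3 at 0.75 (adjusted p = 0.00137), Npy at 0.58 (adjusted p = 0.0271) and Nos1 at 0.50 (adjusted p = 0.00495). These were 5 of 9 where 30.5% of all genes were called. The fit with the covariate but without mutant female 3 called 5 of 9 over both sexes, where 24.9% of all genes were called. Lower were Slc5a7 (-0.74, limma adjusted p = 0.0094) and Vip (-0.48, adjusted p = 0.0228). Higher were Slc18a3 (0.68, limma adjusted p = 0.00706), Dbh (0.43, adjusted p = 0.0168) and Nos1 (0.42, adjusted p = 0.0275). Slc18a2 and Npy were not called there. In that fit Dbh was called higher and Vip and Slc5a7 lower in males, and Nos1 and Slc18a3 higher in females. With the GC and length correction added to the covariate, Slc5a7 was at -0.43 (limma adjusted p = 0.0309) and Slc18a3 at 0.44 (adjusted p = 0.0499) over both sexes. By sex, Slc5a7 was then at -0.66 in males (limma adjusted p = 0.0268) and -0.19 in females (adjusted p = 0.473). Slc18a2 was not called there, at -0.43 in females (limma adjusted p = 0.172) and -0.30 over both sexes (adjusted p = 0.128).

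Sexes were compared within each genotype. Female dissections also held the vagina, so sex and the tissue dissected cannot be told apart in these comparisons. limma called 0 of 9 members between mutant males and mutant females, with 3 at an unadjusted p under 0.05, where 7.49% of all genes were called. Between wild type males and wild type females it called 0 of 9, with 0 at an unadjusted p under 0.05, where 3.18% of all genes were called. All 9 log2 differences were above 0 in each genotype, with medians of 1.05 in mutants and 0.56 in wild types. In mutants 7 of 9 were above 0 without mutant female 3, with a median of 0.24, and 9 of 9 in wild types, with a median of 0.56. The mean log2 value of the 20 pan-neuronal genes was also higher in males. It averaged 4.57 in wild type males against 4.08 in wild type females, and 4.12 in mutant males against 3.01 in mutant females. The part of this general neuronal signal in the sex differences was not tested. Dbh came nearest to a call, at 1.52 in mutants (SE 0.42, limma adjusted p = 0.0531). That value of Dbh was 2.12 without mutant female 2 (limma adjusted p = 0.00176) and 0.92 without mutant female 3 (adjusted p = 0.0636). Its libraries did not overlap, at 21.6 to 26.3 scaled FPKM in mutant males and 3.12 to 18.6 in mutant females.

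Without mutant female 3, Vip and Nos1 were called higher in wild type males than in wild type females, 2 of 9 where 4.85% of all genes were called. Vip differed by 1.27 (SE 0.14, limma adjusted p = 0.000936) and Nos1 by 0.63 (SE 0.15, adjusted p = 0.0408). A fit of the wild type groups alone called 4 of 9 higher in males, where 8.97% of all genes were called: Vip (limma adjusted p = 0.00145), Nos1 (adjusted p = 0.00761), Dbh (adjusted p = 0.0113) and Slc5a7 (adjusted p = 0.0145). Relative to the pan-neuronal mean, Vip averaged 0.28 in wild type males and -0.51 in wild type females, and Slc5a7 -1.30 and -1.56. Nos1 averaged -0.99 and -1.14 there, and Dbh -0.12 and -0.20. Between mutant sexes without mutant female 3 limma called 0 of 9, with 2 at an unadjusted p under 0.05, where 6.59% of all genes were called. There Vip differed by -0.19 and Slc5a7 by 0.24. Without mutant female 2, 5 of 9 were called higher in mutant males, namely Dbh, Ddc, Slc18a2, Th and Slc5a7, where 9.88% of all genes were called.

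Several genes of the lists were called between the sexes in both genotypes. Gata3 was higher in males by 0.84 in mutants and 0.89 in wild types (limma adjusted p = 0.00152 and 0.00149), without overlap. Slc6a2, which takes noradrenaline back into the terminal, was higher by 1.56 in mutant males than in mutant females (limma adjusted p = 0.00197) and by 0.99 between wild type sexes (adjusted p = 0.0319). Penk, the enkephalin precursor, was higher by 1.63 in mutants and 1.16 in wild types (limma adjusted p = 0.00102 and 0.00989). Penk was at 157, 158 and 165 scaled FPKM in mutant males against 33.8, 60 and 67.5 in mutant females, and at 138, 136 and 140 in wild type males against 57.9, 70.8 and 57 in wild type females. Male and female libraries did not overlap for Penk in either genotype. Adra1d was lower in males, by -0.95 in mutants and -1.14 in wild types (limma adjusted p = 0.00639 and 0.00327).

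Likeness of pattern was described by Pearson's r of log2 values over the 12 libraries, which share mutant female 3 as an extreme point. For Slc5a7 the nearest tested genes were Stk39, Napb and Ncam2 (r = 0.986, 0.981 and 0.979), and without mutant female 3 Esyt2, Tmem74 and Pja2 (r = 0.977, 0.974 and 0.973). For Slc18a3 they included Nefm and Ecel1 (r = 0.971 and 0.970), and without that library Wrnip1, Apc2 and Syn1 (r = 0.928, 0.919 and 0.892). For Slc18a2 they were Ctnna2, Chrna3 and Tmeff2 (r = 0.984, 0.980 and 0.980), of which Ctnna2 recurred without mutant female 3 (r = 0.956). Vip was nearest to Brsk2, Tmem179 and Chrnb2 (r = 0.979, 0.978 and 0.978) and, without that library, to Trim35, Arhgap36 and Rap1gap2 (r = 0.972, 0.971 and 0.949).

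For the remaining members over 12 libraries, Th was nearest to Chga, Chgb and Tagln3 (r = 0.945, 0.930 and 0.929) and Dbh to Tlx2, Vstm2l and Sarm1 (r = 0.973, 0.973 and 0.972). Ddc was nearest to Sytl4, Kcnk10 and Fabp7 (r = 0.980, 0.964 and 0.949), Nos1 to Ache and Adap1 (r = 0.969 and 0.955), and Npy to Dusp26, Ache and Jph3 (r = 0.982, 0.967 and 0.966). Between members, Slc5a7 and Slc18a2 had r = 0.96 over 12 libraries and 0.89 without mutant female 3, while Slc5a7 and Slc18a3 had 0.76 and 0.07. These libraries share a tissue, and their depth follows genotype, so the coefficients are given as descriptions.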

How the data were processed

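Gene expression was measured by strand-specific single-end sequencing of total RNA depleted of ribosomal RNA, per the labels' protocols. The deposited table holds FPKM for each of 56495 genes in 12 libraries, per the file headers, and 0 columns belonged to samples outside the series. The submitters' processing notes name Cufflinks 2.2.1, STAR 2.7.10a, bedtools 2.30.0 and cutadapt 4.1 and the builds mm39 and mm10. The annotation and strand setting were not given in the sources used here. The table shared the end position of 2.84% of genes with a GRCm38 annotation and is given as mm39, with 1 added to starts. FPKM hold no counts, so depth is known only in relative terms, from the steps between low values, and no counting interval was computed.

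Libraries were divided by median-ratio factors from 11897 genes, genes with at least 1 FPKM in 3 libraries were kept, and log2 of scaled FPKM plus 0.5, which understates changes of low genes, was fitted with limma 3.58.1 in R 4.3.3 (4 group means, trended prior, two-sided tests, Benjamini-Hochberg adjustment). Figures were drawn with Python 3.11.15 and matplotlib 3.10.9. The GC and length correction subtracted a smooth curve in each library and covered 98.8% of tested genes. All 10 members were named, with up to 4 called genes of each list by size and the 3 genes most alike in pattern, apart from a few that are not reported here. Members and lists were chosen with earlier results of these data known. Nothing in the labels shows that replicates were separate embryos, so p-values measure only the spread between these libraries. Alternatives covered pseudocount, filter, scaling, the samples fitted, the replicate block, base composition and each library left out. The script was tested on simulated data. An exact permutation test of 3 against 3 libraries cannot pass 0.05 and was not used.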

Additional observations from a re-analysis of the deposited data

How the results depend on the processing

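Under 27 alternative settings and 6 comparisons, 1347 of 1434 values of the tested genes stayed on their side of the threshold, 26 lost a call, 49 gained one and 12 changed sign with a call. A further 111 changed sign while called in neither setting. The mutant effect in males minus that in females gave 0 called members under every setting. The 4 settings with the neuronal covariate, or with a GC and length correction without mutant female 3, were chosen after seeing the data.

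In mutant against wild type males, where no member was called, 1 was called with a pseudocount of 1, with FPKM as deposited, with scaling to the library sum and with the neuronal covariate plus GC and length correction. There 2 were called when only the groups compared were fitted, and 3 with the neuronal covariate, with the covariate without mutant female 3 and with the GC and length correction without mutant female 3. In females, where 2 were called, 0 were called with no filter, with only the groups compared, with the GC and length correction (alone, with the replicate block, or without mutant female 3) and with the covariate plus that correction. In females 1 was called with a filter at 5 FPKM, with a mean filter at 0.1 and with the replicate block, 3 with scaling to the library sum (Ddc added), and 4 with the covariate. Slc18a2 did not pass the filter at 5 FPKM, so it was not tested in any comparison under that setting. Over both sexes, where 2 were called, 1 was called with no filter and with the filter at 5 FPKM, 3 with FPKM as deposited (Ddc added), 4 with scaling to the library sum, 0 with the GC and length correction plus replicate block, and 5 with the covariate, with or without mutant female 3. Between wild type sexes 4 were called with only the groups compared, 1 with the covariate without mutant female 3 and 2 with the GC and length correction without it. Between mutant sexes 2 were called with scaling to the library sum and 1 with the covariate plus GC and length correction. With scaling to the library sum, the all-gene median log2 fold change was -0.211 in females. There 4038 of 4358 called genes were lower. With the sexes pooled that median was -0.149 (4617 of 5441 called lower), or -0.111 with FPKM as deposited (2872 of 3424 lower). Male medians were -0.092 and -0.14 in the same order. Between mutant sexes the library-sum median was 0.175, with 1702 of 1933 calls higher. In the main fit these medians were -0.001 to 0.016. Apart from the loss of Slc18a2 to the filter at 5 FPKM, the cause of the differences in called members was not tested.

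Leaving out each of 12 libraries in turn gave 0 to 2 called members in males, 0 to 5 in females, 2 to 6 over both sexes, 0 to 2 between wild type sexes and 0 to 5 between mutant sexes. The female value of Nos1 ran from -0.59 to 0.65 over these, with the upper end called. Other values that turned higher with a call came with the covariate. In females these were Slc18a3 at 0.86 and Nos1 at 0.86, or 0.81 and 0.82 without mutant female 3. Over both sexes these were Slc18a3 at 0.75, Nos1 at 0.50 and Npy at 0.58, or Slc18a3 at 0.68, Dbh at 0.43 and Nos1 at 0.42 without mutant female 3, and Slc18a3 at 0.44 with the GC and length correction.

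Replicate numbers are shared between groups, and deviations of same-numbered libraries correlated at -0.23 to 0.32. Libraries with different numbers were not compared in this way, so whether the numbers pair the samples is not known. With the replicate block the male comparison had 0 called members, the female one 1 and that over both sexes 2, and Slc5a7 in females had an adjusted p of 0.0507 by limma. Depth is known only in relative terms, so no counting error can be given for low values such as those of Chat or of mutant female 3.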
